A study of Mus musculus with 48 samples.

Results

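The muscle transcripts of hCYP2B6-Tg males and Cyp2b-null males were compared at the highest dose of perfluorooctane sulfonate (PFOS), a persistent fluorinated surfactant. The comparison rested on 7 of the 48 gastrocnemius libraries, chosen by sex, genotype and dose alone: 4 hCYP2B6-Tg males and 3 Cyp2b-null males, all gavaged with 10 mg/kg/day for 21 days. By their names, the hCYP2B6-Tg line bears a human CYP2B6 transgene and the Cyp2b-null line lacks mouse Cyp2b genes. Which of these mouse genes are deleted, and whether the hCYP2B6-Tg line lacks them too, is not stated here. No label or design text used here names the promoter of the transgene, the strain background or the age of the mice. Males of both genotypes at 0 mg/kg/day (5 hCYP2B6-Tg and 4 Cyp2b-null) and at 1 mg/kg/day (4 of each), and females of both genotypes at 10 mg/kg/day (4 of each), served for comparison. The labels number the replicates within a group, and each library is taken as 1 mouse. The edgeR p-values below rest on a spread between replicates that is estimated over all 48 libraries, not over the 7 alone. The title of the study names mitochondrial metabolism of this tissue as its question.

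CYP2B enzymes are xenobiotic-metabolising P450s that work chiefly in the liver, where they are induced through the nuclear receptor CAR and also oxidise fatty acids. Adult gastrocnemius sets its protein balance largely through insulin and glucocorticoid signals. When insulin signalling is low or glucocorticoids are high, FOXO transcription factors and the glucocorticoid receptor raise transcripts of ubiquitin ligases, autophagy proteins and inhibitors of growth signalling, while transcripts of lipid synthesis fall.

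Total counts were 13075906 to 15221498 in the 4 hCYP2B6-Tg libraries and 13441266 to 19921061 in the 3 Cyp2b-null libraries. The fast myosin gene Myh4 ran from 33304 to 55306 CPM in hCYP2B6-Tg males and from 44632 to 58694 CPM in Cyp2b-null males, levels of a muscle rich in fast fibres; the tissue field of the labels names gastrocnemius and their extraction text names liver. The albumin gene Alb, a liver transcript, reached 25 counts at most in the 7 libraries. Xist had 0 to 6 counts and the Y-linked gene Ddx3y 1429 to 3029 counts, as the sex label requires. Cyp2b9, Cyp2b10 and Cyp2b13 had 0 counts in each of the 7 libraries, below the floor of 3 counts per library, so muscle RNA offered no check of genotype; human CYP2B6 was not analysed here. Glycam1, a gene of lymph node vessels, had 71 counts in hCYP2B6-Tg replicate 3 and 41 in Cyp2b-null replicate 3, and calls lost without the libraries high in this gene are given below. The library numbers in the labels were lower in all 4 hCYP2B6-Tg males than in all 3 Cyp2b-null males, so handling in the order of the numbers and genotype cannot be told apart.

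The genotypes differed in very few transcripts that passed the test. Of 15583 genes tested, 2 passed at 10 mg/kg/day in males, which is 0.0128% of all genes. Both were lower in hCYP2B6-Tg males: Furin, the protease that cleaves and so activates many secreted proproteins, and Syne1, which encodes nesprin-1, an outer nuclear membrane protein that anchors nuclei to the cytoskeleton of the muscle fibre. Levels are CPM, counts scaled to a common depth, here on library sizes adjusted by the TMM method, and tests are edgeR's quasi-likelihood test over all 48 libraries with Benjamini-Hochberg adjustment. At an unadjusted p under 0.05 there were 582 genes higher (3.73%) and 768 lower (4.93%) in hCYP2B6-Tg males, and DESeq2 called 62. The count of 2 was 0 without hCYP2B6-Tg replicate 4, 6, 12 and 16 without hCYP2B6-Tg replicates 3, 2 and 1, and 3 to 6 without any one of the Cyp2b-null males.

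Furin (ENSMUSG00000030530, GRCm38 chromosome 7, 80388585 to 80405436, minus strand) had 48.2, 54.0, 35.5 and 44.9 CPM in the hCYP2B6-Tg males, against 83.2, 80.8 and 75.3 CPM in the Cyp2b-null males. Every hCYP2B6-Tg value lay below every Cyp2b-null value. The log2 fold change was -0.80 ± 0.14 (SE, edgeR adjusted p = 0.00919, 95% interval -1.08 to -0.53). At the lower doses the genotypes lay closer together. At 0 mg/kg/day Furin averaged 51.0 ± 1.04 CPM in hCYP2B6-Tg males (SD, n = 5) and 53.9 ± 2.81 CPM in Cyp2b-null males (n = 4). At 1 mg/kg/day it averaged 42.6 ± 3.81 CPM in hCYP2B6-Tg males and 53.0 ± 3.43 CPM in Cyp2b-null males (n = 4 each). Every high-dose Cyp2b-null male thus stood above the highest male at the lower doses, which had 57.0 CPM, while the high-dose hCYP2B6-Tg males overlapped those doses. The test of whether the genotype difference at 10 mg/kg/day departs from that at 0 gave a log2 difference of -0.72 ± 0.18, which did not pass after adjustment (edgeR adjusted p = 0.349). Without hCYP2B6-Tg replicate 4 the adjusted p for Furin was 0.0549, without both Glycam1 libraries and the 2 like them in females it was 0.143, and with the spread estimated from the 7 libraries alone it was 0.253, at log2 fold changes of -0.80, -0.75 and -0.79.

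Syne1 (ENSMUSG00000096054, GRCm38 chromosome 10, 5020917 to 5551482, minus strand) had 154.4, 131.5, 144.1 and 131.9 CPM in the hCYP2B6-Tg males, against 233.5, 191.9 and 338.6 CPM in the Cyp2b-null males. The groups did not overlap, and Cyp2b-null replicate 3 was the highest. This amounted to a log2 fold change of -0.86 ± 0.16 (edgeR adjusted p = 0.0291). At 0 mg/kg/day Syne1 averaged 115 ± 17.9 CPM in hCYP2B6-Tg males (SD, n = 5) and 117.4 ± 10.6 CPM in Cyp2b-null males (n = 4). The call for Syne1 was lost in more alternatives than that for Furin. It was lost without Cyp2b-null replicate 3 (log2 fold change -0.60, adjusted p = 0.272), without hCYP2B6-Tg replicate 4 (adjusted p = 0.141), without the Glycam1 libraries (log2 fold change -0.62, adjusted p = 0.412), with library totals in place of TMM (adjusted p = 0.102), with the replicate number as a block (adjusted p = 0.0606) and in the fit of the 7 libraries alone (adjusted p = 0.304). The gene is long and gives several transcripts, which a count per gene does not tell apart.

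**Figure D1:**
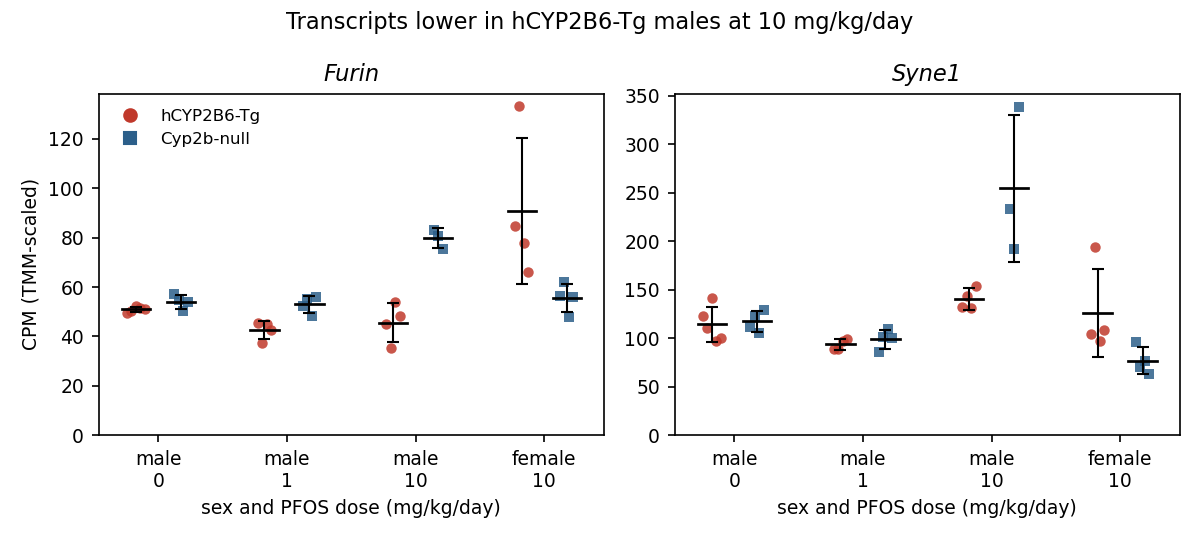
CPM of Furin and Syne1 in each library (points), with the mean (bar) and SD (whisker), by sex and PFOS dose in mg/kg/day; hCYP2B6-Tg in circles and Cyp2b-null in squares. In males at 10 mg/kg/day the hCYP2B6-Tg libraries lie below the Cyp2b-null libraries, and in females at 10 mg/kg/day Furin lies the other way round, from 66.3 to 133 CPM in hCYP2B6-Tg and from 47.9 to 62.1 CPM in Cyp2b-null.

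Just short of the threshold were 4 transcripts with an edgeR adjusted p of 0.0577, all lower in hCYP2B6-Tg males. Nup210, a nuclear pore membrane protein, had 46.3 to 53.0 CPM in hCYP2B6-Tg males and 67.6 to 90.2 CPM in Cyp2b-null males (log2 fold change -0.60 ± 0.12). Hs6st1, an enzyme that sulfates heparan sulfate, had 29.99 to 34.66 CPM in hCYP2B6-Tg males and 45.1 to 47.7 CPM in Cyp2b-null males (log2 fold change -0.51 ± 0.11). Tnrc18, a chromatin-associated protein gene, had 24.9 to 38.4 CPM in hCYP2B6-Tg males and 52.2 to 59.3 CPM in Cyp2b-null males (log2 fold change -0.76 ± 0.16). Xrn1, the main cytoplasmic exonuclease of messenger RNA decay, had 21.9 to 31.6 CPM in hCYP2B6-Tg males and 34.4 to 38.9 CPM in Cyp2b-null males (log2 fold change -0.49 ± 0.10). In each of the 4 the groups did not overlap, as also held for 606 genes higher (3.89%) and 850 genes lower (5.45%) over all genes tested.

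Other transcripts among the 25 smallest p were chosen after their values were seen, and none passed. Tob2, an antiproliferative adaptor of mRNA deadenylation, stood at 71.0, 70.5, 80.3 and 77.9 CPM in hCYP2B6-Tg males, against 172, 170 and 192 CPM in Cyp2b-null males (log2 fold change -1.25 ± 0.27, edgeR adjusted p = 0.0677). Its level was also lower in hCYP2B6-Tg males without PFOS, at 69.3 ± 8.06 CPM (SD, n = 5) against 106 ± 22.6 CPM in Cyp2b-null males (n = 4), with a log2 fold change of -0.61 that did not pass. H6pd, the endoplasmic reticulum enzyme that supplies NADPH to the glucocorticoid-activating enzyme HSD11B1, had 82.6 to 96.0 CPM in hCYP2B6-Tg males and 133.7 to 149.8 CPM in Cyp2b-null males (adjusted p = 0.0954). Vps13d, a lipid transfer protein of mitochondrial and peroxisomal contacts, had 83.1 to 133.957 CPM in hCYP2B6-Tg males and 149 to 173 CPM in Cyp2b-null males (adjusted p = 0.0964). In the other direction, Adamts1, a secreted metalloprotease, had 26.1 to 66.2 CPM in hCYP2B6-Tg males and 17.7 to 22.5 CPM in Cyp2b-null males (log2 fold change 1.14 ± 0.26, adjusted p = 0.0964). Gsta4, a glutathione transferase that detoxifies products of lipid peroxidation, had 7.11 to 7.77 CPM in hCYP2B6-Tg males and 3.04 to 5.36 CPM in Cyp2b-null males (log2 fold change 0.86 ± 0.21, adjusted p = 0.139); members of its family resemble one another, so its reads may be shared with them.

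Muscle atrophy and FOXO target transcripts leaned towards lower levels in hCYP2B6-Tg males without a single member passing. The list held 30 tested genes, of which 0 were called. In 12 of the 30 every hCYP2B6-Tg library lay below every Cyp2b-null library, in 0 the reverse (over all genes tested 5.45% lay fully lower and 3.89% fully higher), and the median log2 fold change was -0.35 against 0.03 over all genes tested. The 12 were the ubiquitin ligase genes Trim63 and Fbxo31, the transcription factors Foxo3, Foxo4 and Klf15, the growth and cell cycle inhibitors Ddit4, Sesn1 and Cdkn1a, the phosphoinositide kinase subunit Pik3r1, and the lysosomal and autophagy genes Ctsl, Bnip3 and Ulk1. Summed over the list, the level was 4480 to 5874 CPM in hCYP2B6-Tg males and 6208 to 7704 CPM in Cyp2b-null males at 10 mg/kg/day, and 2999 to 3735 CPM in hCYP2B6-Tg males and 3256 to 3424 CPM in Cyp2b-null males at 0 mg/kg/day. The list was chosen with earlier results of these libraries known, so its direction is described and not tested.

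Trim63, which encodes MuRF1, the ubiquitin ligase that marks myosin for degradation, had 459, 491, 486 and 910 CPM in hCYP2B6-Tg males, against 1383, 1498 and 1007 CPM in Cyp2b-null males. Replicate 4 of hCYP2B6-Tg lay close to the lowest Cyp2b-null male, and the log2 fold change of -1.14 ± 0.47 did not pass (edgeR adjusted p = 0.429). Fbxo32, the gene of the ubiquitin ligase atrogin-1, had 1069, 1109, 1057 and 1755 CPM in hCYP2B6-Tg males, against 1872, 2153 and 1330 CPM in Cyp2b-null males, which overlapped (log2 fold change -0.52 ± 0.38, adjusted p = 0.765). In either genotype all males at 10 mg/kg/day stood above all males without PFOS in both genes: at 0 mg/kg/day Trim63 averaged 308 ± 81.2 CPM in hCYP2B6-Tg males (SD, n = 5) and 322 ± 44.7 CPM in Cyp2b-null males (n = 4), and Fbxo32 averaged 595 ± 118.1 CPM in hCYP2B6-Tg males and 605 ± 66.6 CPM in Cyp2b-null males. Ddit4, an inhibitor of the growth kinase mTORC1, had 23.8, 42.4, 49.5 and 23.8 CPM in hCYP2B6-Tg males, against 274.6, 131.2 and 70.1 CPM in Cyp2b-null males (log2 fold change -2.18 ± 0.65, adjusted p = 0.237). A Ddit4 difference of like size, log2 -2.07, stood between the genotypes already at 0 mg/kg/day, at 4.81 ± 1.304 CPM in hCYP2B6-Tg males (SD, n = 5) and 20.2 ± 7.28 CPM in Cyp2b-null males (n = 4). Sesn1, a stress-induced sensor that also restrains mTORC1, had 54.9, 48.4, 39.4 and 71.4 CPM in hCYP2B6-Tg males, against 121, 158 and 89.9 CPM in Cyp2b-null males (log2 fold change -1.20 ± 0.39, adjusted p = 0.287).

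FOXO factors bind DNA with the core letters GTAAACA, and the promoters of the genes on which the results turn are shown for that reason, from RefSeq on GRCm38.p6, each from 250 bases before to 50 bases after an annotated start, 5′ to 3′ on the gene's strand. The core was searched on both strands and is printed in capitals. Of 6 genes looked up (Furin, Syne1, Trim63, Fbxo32, Sesn1 and Ddit4), 5 had a window, and 3 of their 9 windows held the core, against 3.65% of all 32851 windows in the table. The 6 without it were all 3 windows of Syne1, the second of Sesn1, the first of Furin and that of Ddit4. The genes were picked by hand, with Trim63, Fbxo32, Sesn1 and Ddit4 from the atrophy and FOXO list. Some windows also belong to the same gene, so their share is not comparable with that of all windows, and enrichment was not tested. The lines give Trim63 at chr4:134314870-134315169 (plus strand, core starting 194 bases before the start), the first window of Sesn1 at chr10:41810324-41810623 (plus strand, core at position 23 after the start), both windows of Furin at chr7:80405387-80405686 and chr7:80402763-80403062 (minus strand, core only in the second, at position 31 after the start), the first window of Syne1 at chr10:5550643-5550942 (minus strand, no match) and Ddit4 at chr10:59951721-59952020 (minus strand, no match).
Trim63: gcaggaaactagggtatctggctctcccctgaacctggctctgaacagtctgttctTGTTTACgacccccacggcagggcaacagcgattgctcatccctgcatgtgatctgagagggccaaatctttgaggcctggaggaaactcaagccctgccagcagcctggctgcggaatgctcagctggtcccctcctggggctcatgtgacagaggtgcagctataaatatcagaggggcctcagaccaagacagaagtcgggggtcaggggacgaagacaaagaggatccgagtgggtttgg
Sesn1: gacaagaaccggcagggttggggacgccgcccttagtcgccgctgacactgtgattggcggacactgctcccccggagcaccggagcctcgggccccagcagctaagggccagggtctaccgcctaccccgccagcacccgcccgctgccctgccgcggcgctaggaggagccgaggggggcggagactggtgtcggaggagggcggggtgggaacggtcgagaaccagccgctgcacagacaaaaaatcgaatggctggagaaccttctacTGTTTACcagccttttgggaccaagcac
Furin, first: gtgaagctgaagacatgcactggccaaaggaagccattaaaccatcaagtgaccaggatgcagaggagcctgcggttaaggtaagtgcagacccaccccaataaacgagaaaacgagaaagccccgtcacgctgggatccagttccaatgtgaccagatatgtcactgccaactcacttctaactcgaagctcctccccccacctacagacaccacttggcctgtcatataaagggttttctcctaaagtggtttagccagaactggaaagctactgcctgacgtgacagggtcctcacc
Furin, second: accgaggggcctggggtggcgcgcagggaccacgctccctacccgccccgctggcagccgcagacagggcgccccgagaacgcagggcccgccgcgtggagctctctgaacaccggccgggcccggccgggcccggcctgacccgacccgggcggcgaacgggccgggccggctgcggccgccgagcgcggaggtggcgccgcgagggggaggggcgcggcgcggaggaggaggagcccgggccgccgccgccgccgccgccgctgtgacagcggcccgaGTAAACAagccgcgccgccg
Syne1: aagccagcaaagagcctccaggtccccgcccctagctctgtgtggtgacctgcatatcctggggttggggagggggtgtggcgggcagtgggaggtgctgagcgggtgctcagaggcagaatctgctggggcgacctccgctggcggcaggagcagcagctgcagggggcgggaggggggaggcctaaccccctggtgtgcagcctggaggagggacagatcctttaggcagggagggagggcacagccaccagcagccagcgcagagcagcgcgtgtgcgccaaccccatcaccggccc
Ddit4: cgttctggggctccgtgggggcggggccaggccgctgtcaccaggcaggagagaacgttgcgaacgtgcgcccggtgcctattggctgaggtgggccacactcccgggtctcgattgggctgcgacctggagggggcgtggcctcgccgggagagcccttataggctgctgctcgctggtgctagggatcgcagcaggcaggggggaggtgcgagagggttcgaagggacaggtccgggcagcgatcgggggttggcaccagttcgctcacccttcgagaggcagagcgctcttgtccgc
A match describes these letters in these windows and is no sign of binding.

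**Figure D2:**
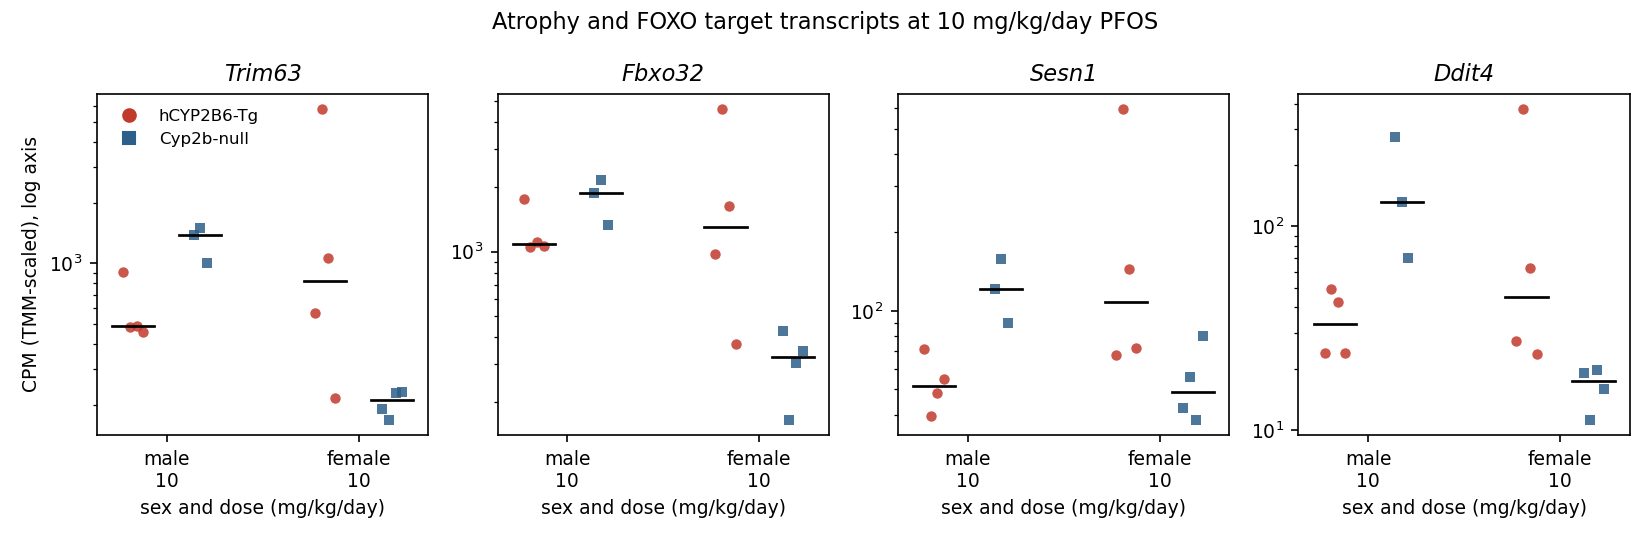
CPM on a log axis of Trim63, Fbxo32, Sesn1 and Ddit4 in each library at 10 mg/kg/day (points) with the group median (bar), males then females; hCYP2B6-Tg in circles and Cyp2b-null in squares. hCYP2B6-Tg males lie mostly below Cyp2b-null males, whereas hCYP2B6-Tg females reach 5801 CPM of Trim63 against at most 231 CPM in Cyp2b-null females.

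Glucocorticoid target transcripts also lay mostly lower in hCYP2B6-Tg males. This list shares members with the one above, Klf15, Ddit4 and Sesn1 among them, so the 2 lists are not independent. Of 19 tested members 0 were called; the groups did not overlap in 7, all lower in hCYP2B6-Tg males, against 5.45% lower and 3.89% higher over all genes tested. The median log2 fold change of the list was -0.50 at 10 mg/kg/day with 15 of 19 negative, and -0.32 at 0 mg/kg/day, also with 15 of 19 negative. Klf9, a transcription factor induced by glucocorticoids, had 162 to 229 CPM in hCYP2B6-Tg males and 255 to 328 CPM in Cyp2b-null males (log2 fold change -0.59 ± 0.20, edgeR adjusted p = 0.293). Fkbp5, a co-chaperone that dampens the glucocorticoid receptor, had 86.0 to 100 CPM in hCYP2B6-Tg males and 115 to 186 CPM in Cyp2b-null males (log2 fold change -0.68 ± 0.40, adjusted p = 0.669). Cebpd, a transcription factor that glucocorticoids also induce, had 39.5 to 58.3 CPM in hCYP2B6-Tg males and 46.8 to 207 CPM in Cyp2b-null males, where replicate 3 alone was low. Insulin signalling genes had 22 tested members, 0 called, 1 non-overlapping higher and 6 lower (3.89% and 5.45% over all genes tested), with Pik3r1 at 83.4 to 133 CPM in hCYP2B6-Tg males and 166 to 227 CPM in Cyp2b-null males (log2 fold change -0.78 ± 0.26, adjusted p = 0.296). Clock genes had 19 tested members, 0 called, 2 non-overlapping higher and 6 lower, against the same shares over all genes tested, 3.89% higher and 5.45% lower. The median log2 fold change of the clock list was near level, at -0.02 against 0.03 over all genes tested. The clock genes given next, Arntl and Per1, are both among the lower ones. Arntl, the core activator of the clock, had 19.2 to 25.1 CPM in hCYP2B6-Tg males and 32.8 to 45.8 CPM in Cyp2b-null males, and Per1, a clock repressor that glucocorticoids also induce, had 70.7 to 97.3 CPM in hCYP2B6-Tg males and 124.7 to 156.5 CPM in Cyp2b-null males.

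Transcripts encoded in mitochondrial DNA took a larger share of counts in hCYP2B6-Tg males, at 9.29 ± 0.47% (SD, n = 4) against 7.51 ± 0.42% in Cyp2b-null males (n = 3). The shares did not overlap, running from 8.71 to 9.78% in hCYP2B6-Tg males and from 7.06 to 7.89% in Cyp2b-null males. The exact two-sided permutation p was 0.0571, the smallest that 35 splits of 4 against 3 can give, and the adjusted p over 18 library measures was 0.914. Of the 13 mitochondrially encoded protein genes, 0 were called and 13 had a positive log2 fold change, with a median of 0.27. The largest was that of mt-Co2, subunit 2 of cytochrome c oxidase, at 1164, 764, 788 and 1260 CPM in hCYP2B6-Tg males, against 420, 394 and 408 CPM in Cyp2b-null males. The Cyp2b-null males were low and tightly grouped and the hCYP2B6-Tg males spread widely above them (log2 fold change 1.29 ± 0.32, edgeR adjusted p = 0.145). At 0 mg/kg/day mt-Co2 averaged 1229 ± 393 CPM in hCYP2B6-Tg males (SD, n = 5) and 1411 ± 166 CPM in Cyp2b-null males (n = 4). The genotype effect on mt-Co2 at 10 mg/kg/day was 1.29 in males and -0.46 ± 0.29 in females, a difference of 1.75 ± 0.43 (adjusted p = 0.00829). The list as a whole was positive in both sexes. In females 11 of the 13 were above 0 with a median of 0.24 and 0 called, against 12.9% of all genes tested. The median difference between the sexes was 0.05, against 0.07 over all genes tested. For that difference mt-Co2 was the 1 of 13 called. Over all genes tested 9.46% were called, 3.13% higher and 6.33% lower, so 1 call among 13 is near that share. Among nuclear genes of the respiratory chain 0 were called: the median log2 fold change was 0.10 for complex I subunits, 0.11 for complexes II and III with cytochrome c, 0.18 for complex IV subunits and 0.12 for complex V subunits. Fatty acid oxidation genes had a median of 0.19 and TCA cycle genes of 0.13, again with 0 called.

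**Figure D3:**
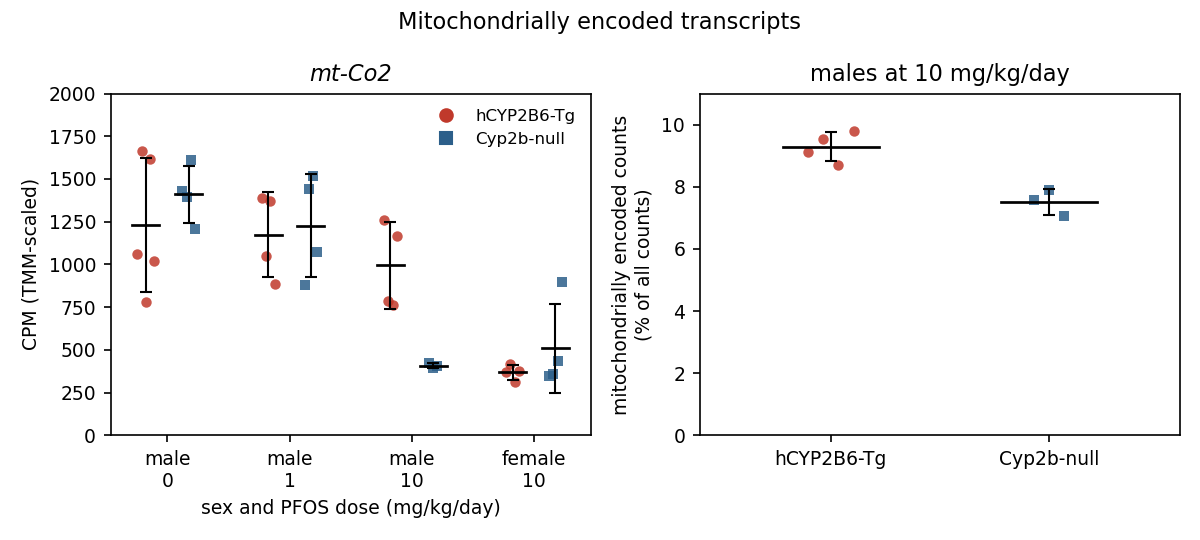
Left, CPM of mt-Co2 in each library by sex and PFOS dose in mg/kg/day; right, mitochondrially encoded counts as a percentage of all counts in males at 10 mg/kg/day, with mean (bar) and SD (whisker). hCYP2B6-Tg is in circles and Cyp2b-null in squares; the mitochondrial share was 8.71 to 9.78% in hCYP2B6-Tg males and 7.06 to 7.89% in Cyp2b-null males.

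Slow fibre transcripts varied widely among the hCYP2B6-Tg males, and none differed between genotypes past the test. In whole muscle, more cells of a type and more RNA per cell cannot be told apart. The 19 slow fibre genes had a median log2 fold change of 1.305 at 10 mg/kg/day and of -1.42 at 0 mg/kg/day in males, with 0 called at either dose. Myh7, the slow myosin heavy chain, had 42.7, 2413, 295 and 1866 CPM in hCYP2B6-Tg males, against 223.4, 178.7 and 123.3 CPM in Cyp2b-null males. hCYP2B6-Tg replicates 2 and 4 were high, replicate 1 was the lowest of the 7, and the groups overlapped (log2 fold change 2.72 ± 1.71, edgeR adjusted p = 0.708). Atp2a2, the calcium pump of slow fibres, followed the same libraries at 98.4, 1868, 245 and 1556 CPM in hCYP2B6-Tg males, against 187.8, 165.7 and 138.3 CPM in Cyp2b-null males. Fast fibre genes had 0 of 20 called and a median of -0.11. Of the other marker lists, smooth muscle and pericyte genes were non-overlapping higher in 3 of 12 (3.89% over all genes tested) with a median of 0.41, but the range of their mean level, 3.57 to 4.35 log2 CPM in hCYP2B6-Tg males and 3.57 to 3.78 in Cyp2b-null males, overlapped. Neutrophil and lymphocyte markers were positive in 14 of 14 with a median of 1.17, and brown adipocyte markers in 8 of 8 with a median of 0.75, with 0 called and 1 non-overlapping higher in each. Their mean levels overlapped too, at -1.64 to 2.61 log2 CPM in hCYP2B6-Tg males and -1.51 to 0.89 in Cyp2b-null males for the neutrophil and lymphocyte list, and at 1.85 to 3.25 in hCYP2B6-Tg males and 1.73 to 1.85 in Cyp2b-null males for the brown adipocyte list. In the neutrophil and lymphocyte list hCYP2B6-Tg replicate 3 alone stood at 2.61, and the other hCYP2B6-Tg males at -1.64 to -1.04. Cyp2b-null replicate 3 stood at 0.89, and the other Cyp2b-null males at -1.51 and -1.47. Such one-sided lists were not confined to these 2. Slow fibre genes were positive in 19 of 19, nerve and Schwann cell markers in 16 of 16 with a median of 0.40, and endothelial markers in 19 of 20, with 0 called in each. Macrophage, liver, nerve, erythroid and skin markers had 0 members that did not overlap, and no library measure passed its exact permutation test.

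Transcripts of lipid synthesis were scattered within the hCYP2B6-Tg males. Fasn, fatty acid synthase, had 14.7, 472, 273 and 29.1 CPM in hCYP2B6-Tg males, against 44.7, 52.2 and 188 CPM in Cyp2b-null males. hCYP2B6-Tg replicates 2 and 3 were the highest and replicates 1 and 4 the lowest of the 7. Acly, which makes cytosolic acetyl-CoA, had the same libraries highest and lowest, at 17.5, 127.9, 70.4 and 16.9 CPM in hCYP2B6-Tg males, against 19.5, 24.3 and 43.3 CPM in Cyp2b-null males. The 20 fatty acid synthesis genes had a median log2 fold change of 0.34 with 0 called, and adipocyte markers, which can carry such transcripts, had a mean level of 2.75 to 6.08 log2 CPM in hCYP2B6-Tg males and 3.96 to 5.35 log2 CPM in Cyp2b-null males. The part of adipocyte RNA in the scatter was not tested.

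The genotype comparison was repeated without PFOS and at the low dose, in mice that share no library with those above. At 0 mg/kg/day 0 genes passed by edgeR, with 600 at an unadjusted p under 0.05 (3.85%) and 4 by DESeq2. At 1 mg/kg/day 19 passed (0.122%), 2 higher and 17 lower in hCYP2B6-Tg males. The count was 0 without Cyp2b-null male replicate 2 at that dose, which had 27859 counts of Alb, and 0 or 1 without any one of the 4 hCYP2B6-Tg males. It was 29 to 36 without Cyp2b-null male replicate 1, 3 or 4. The test of whether the genotypes responded differently to 10 against 0 mg/kg/day called 0 genes by edgeR, with 1160 at an unadjusted p under 0.05 and 4 by DESeq2. The median absolute log2 fold change between genotypes was 0.13 at 0 mg/kg/day, 0.14 at 1 and 0.18 at 10.

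At 10 mg/kg/day the genotype contrast called 2 genes in males and 2003 in females, 12.9% of those tested, with 1212 higher (7.78%) and 791 lower (5.08%) in hCYP2B6-Tg females. With library totals in place of TMM the females' split was 752 higher and 1241 lower, and without hCYP2B6-Tg female replicate 2 the count was 577. Because a count that passes in one sex and not in the other does not show a difference, the males' genotype effect was tested against the females' in the same model. By that test 1474 genes differed (9.46%), with 487 higher (3.13%) and 987 lower (6.33%) in males relative to females. Library totals without scaling turned that split to 903 higher and 524 lower of 1427, and moved the median of all genes by 0.14 on the log2 scale, to 0.21 against 0.07. The count moved with single libraries: it was 659 without hCYP2B6-Tg female replicate 2 and 935 without Cyp2b-null male replicate 1. Furin and Syne1 were both among the genes that differed. Furin was lower in hCYP2B6-Tg males and higher in hCYP2B6-Tg females than in Cyp2b-null mice of the same sex, with log2 fold changes of -0.80 in males and 0.71 ± 0.13 in females, a difference of -1.51 ± 0.19 (edgeR adjusted p = 7.46e-06). Syne1 gave -0.86 in males and 0.72 ± 0.15 in females, a difference of -1.58 ± 0.22 (adjusted p = 5.52e-05). Xrn1, listed above as just short of the threshold in males, gave -0.49 in males and 0.62 ± 0.10 in females, a difference of -1.11 ± 0.14 (adjusted p = 7.68e-06).

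Atrophy and FOXO target transcripts were among those whose genotype effect differed between the sexes. Of the 30 genes 19 had a lower genotype effect in males than in females and 0 a higher one, with a median difference of -1.11, against 6.33% of all genes called lower and a median of 0.07. Without hCYP2B6-Tg female replicate 2 the count was 12, and with library totals 1 member was called higher. In females alone 16 members were higher and 1 lower in hCYP2B6-Tg, against 7.78% higher and 5.08% lower over all genes tested. Trim63 had 570, 5801, 1062 and 217 CPM in hCYP2B6-Tg females, against 191.0, 168.5, 228.9 and 231.4 CPM in Cyp2b-null females. Replicate 2 was far above the others and replicate 4 within the Cyp2b-null range. Its log2 fold change was -1.14 in males and 3.22 ± 0.48 in females, a difference of -4.37 ± 0.66 (edgeR adjusted p = 1.27e-04) that was -2.73 without replicate 2 (adjusted p = 1.49e-04). Fbxo32 had 979, 4605, 1637 and 371 CPM in hCYP2B6-Tg females, against 430, 166, 304 and 347 CPM in Cyp2b-null females, with a difference between the sexes of -3.12 ± 0.53 (adjusted p = 3.23e-04) and of -2.19 without replicate 2 (adjusted p = 0.00122). Ddit4 differed by -5.07 ± 0.91 (adjusted p = 5.11e-04) and by -3.37 without it, and Sesn1 by -3.22 ± 0.54 (adjusted p = 3.23e-04) and by -2.01 without it. Foxo1, a driver of these genes, differed by -2.30 ± 0.55 (adjusted p = 0.00618), a call lost without replicate 2 (-1.53, adjusted p = 0.0579), although in males it was nearly level, at 36.5 to 49.4 CPM in hCYP2B6-Tg and 36.7 to 55.7 CPM in Cyp2b-null.

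**Figure D4:**
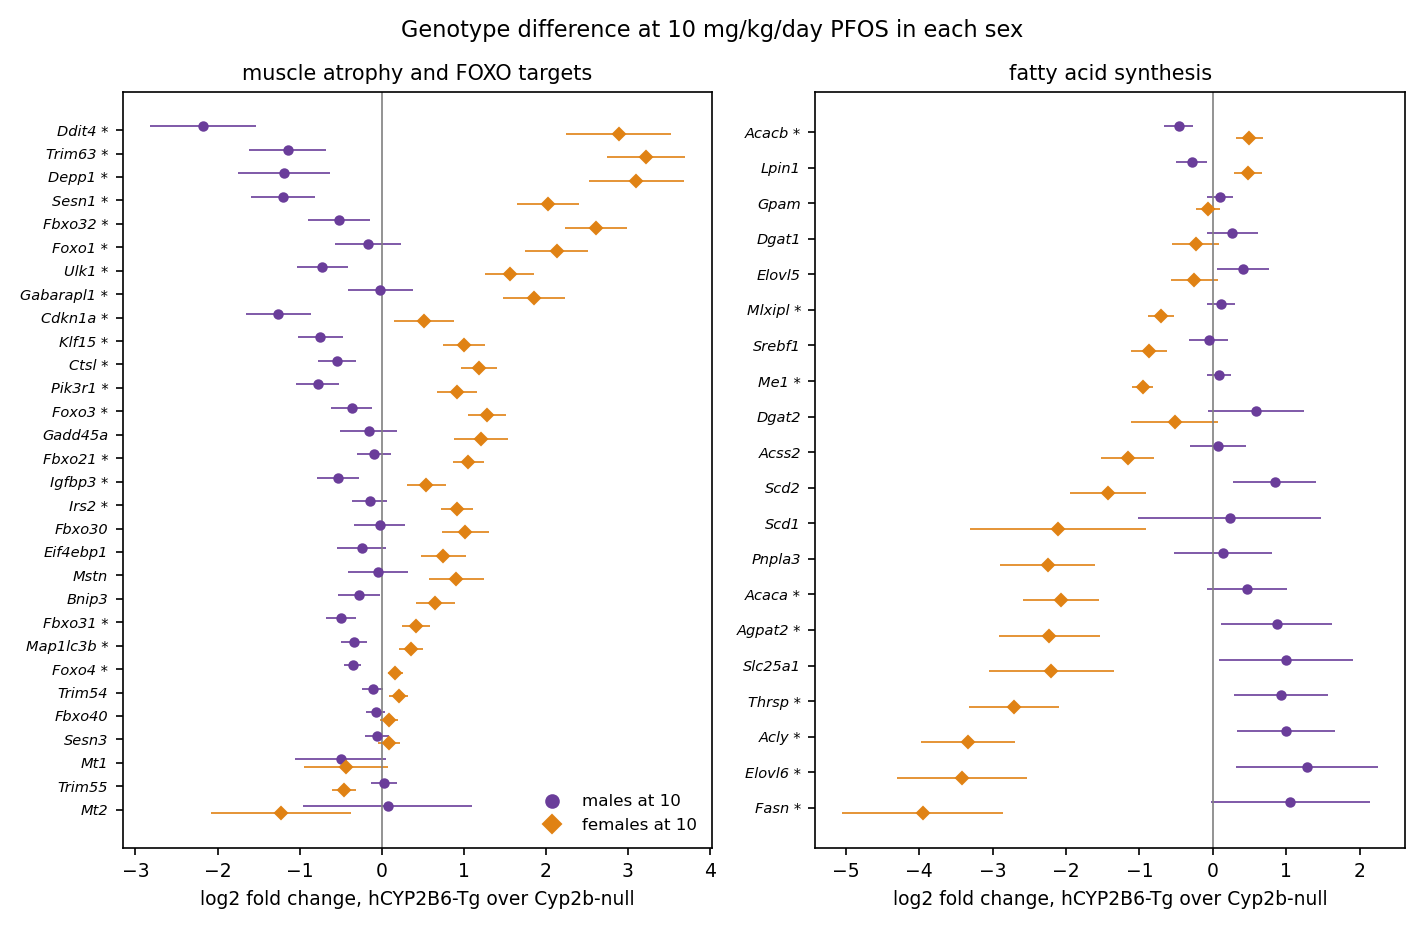
Log2 fold change of hCYP2B6-Tg over Cyp2b-null at 10 mg/kg/day with its SE for each tested gene of 2 lists, in males (circles) and in females (diamonds); an asterisk marks genes whose effect differed between the sexes. For 19 of 30 atrophy and FOXO genes the males' value lies below the females' past the test, and for 8 of 20 fatty acid synthesis genes it lies above.

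Glucocorticoid targets, which share members with the atrophy and FOXO list, followed in the same direction. In males relative to females 9 of 19 were lower and 0 higher, with a median of -1.61, against 6.33% lower and 3.13% higher over all genes tested. Pdk4, the kinase that blocks pyruvate oxidation in fasting, differed by -4.97 ± 1.03 (edgeR adjusted p = 0.0019), Cebpd by -4.19 ± 0.73 (adjusted p = 4.23e-04), Klf9 by -1.61 ± 0.27 (adjusted p = 3.23e-04) and Fkbp5 by -2.48 ± 0.55 (adjusted p = 0.00347). Fatty acid synthesis went the other way, with 8 of 20 higher and 1 lower in males relative to females and a median of 1.75 (3.13% higher and 6.33% lower over all genes tested). Acly differed by 4.33 ± 0.93 (adjusted p = 0.00269) and Thrsp, a lipogenic protein induced by thyroid hormone, by 3.64 ± 0.89 (adjusted p = 0.00765), with log2 fold changes in males of 1.00 for Acly and 0.93 for Thrsp that did not pass. By limma voom the sex difference was 2.69 for Acly (adjusted p = 0.0575) and 2.30 for Thrsp (adjusted p = 0.101), so that neither call held. The 8 became 3 without hCYP2B6-Tg male replicate 2, hCYP2B6-Tg female replicate 2, Cyp2b-null female replicate 1 or the Glycam1 libraries, 4 without Cyp2b-null male replicate 1 or 2, 5 without hCYP2B6-Tg female replicate 3, and 2 by limma voom. Cholesterol synthesis had 5 of 21 higher and 1 lower, against the same shares over all genes tested, 3.13% and 6.33%, among them Dhcr7, the enzyme of its last step, at 1.70 ± 0.37 (adjusted p = 0.00305) and Cyp51, lanosterol demethylase, at 1.93 ± 0.53 (adjusted p = 0.0169), a call lost without Cyp2b-null male replicate 1 (1.82, adjusted p = 0.0536), without Cyp2b-null female replicate 1 (1.39, adjusted p = 0.0711) and without the Glycam1 libraries (1.83, adjusted p = 0.0948). The 5 became 3 without hCYP2B6-Tg male replicate 2, hCYP2B6-Tg female replicate 2 or the Glycam1 libraries, and 2 without Cyp2b-null male replicate 1 or Cyp2b-null female replicate 1. Respiratory chain complexes I to V had 0 nuclear members that differed between the sexes.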

How the data were processed

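Per the labels, RNA of each mouse was extracted with TRIzol and libraries were made from messenger RNA. The deposited file is 1 count table of 54532 genes, unnormalized, from which every level and test here was computed. The submitters' processing notes name HISAT2 and GRCm39, with neither version nor role. What counted the reads, on which annotation and whether by strand is not given in the sources used here, so overlapping and antisense genes cannot be told apart. The deposited coordinates are those of GRCm38: 54409 identifiers are in GENCODE vM21, and 53499 (98.3%) have the same start and end there. The deposited gene length column was used only to sort genes by length.

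Each of the 48 columns carries the library name of 1 sample, and these fall in 12 groups. Genes were filtered with filterByExpr and scaled with TMM in edgeR 4.0.16 (R 4.3.3), which left 15583 genes. Negative binomial models with 1 coefficient per group (residual degrees of freedom 36, BCV 23.5%) were tested with glmQLFTest, two-sided, with Benjamini-Hochberg adjustment over all genes tested and a threshold of 0.05. Library measures were compared with exact permutation tests. Over the 9 pairs of libraries within the 2 groups, chi-square divided by its degrees of freedom was at least 7.32, so no library was counted as a copy. Total counts per library ran from 11571142 to 19921061. The floor of 3 counts covers counting error only. The functions were tested on simulated data.

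Genes named are the largest changes among those that passed, with average log2 CPM not under 1 and without overlap between the groups, the 5 smallest p where fewer than 10 passed, up to 4 passing members of each of 50 lists, and a set of genes read in any case; others are said to be chosen after their values were seen, and 1 gene is not reported here. Comparisons, lists and tests were chosen with earlier results of these data known. Alternatives were RLE scaling, library totals, other filters, limma voom (limma 3.58.1), DESeq2 1.42.0, a replicate block, fewer libraries and each library left out.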

Additional observations from a re-analysis of the deposited data

Results flagged for a closer look

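Single hCYP2B6-Tg males at 10 mg/kg/day lay apart from the other 3 by Dixon's test at the 95% level, which flags about 1 in 20 groups by chance. It was run on a set of 100 named genes, leaving out Xist and Ddx3y, and on 18 library measures. At that rate several flags come by chance alone, and the flags below were not adjusted for it. Replicate 4 was high in Trim63 (910 CPM), Fbxo32 (1755 CPM) and mt-Nd5, a mitochondrially encoded complex I subunit (9880 CPM). Replicate 2 was high in Tcim (12.7 CPM). Replicate 3 was low in Gsta4 (7.11 CPM) and high in Glycam1 (3.88 CPM) and in the mean of neutrophil and lymphocyte markers (2.61 log2 CPM).

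The genotype effect at 10 mg/kg/day differed between males and females by edgeR's test of that difference, given here as the log2 fold change in males minus that in females. For the genes that passed in males it was -1.51 for Furin and -1.58 for Syne1. For transcripts close to the threshold in males it was -0.70 for Nup210, -0.67 for Hs6st1, -0.79 for Tnrc18, -1.11 for Xrn1, -1.63 for Tob2, -1.06 for H6pd, -1.15 for Vps13d, 1.46 for Adamts1 and 1.09 for Gsta4, and for the mitochondrially encoded mt-Co2 it was 1.75. Among atrophy, FOXO and autophagy genes it was -4.37 for Trim63, -3.12 for Fbxo32, -5.07 for Ddit4, -3.22 for Sesn1, -4.30 for Depp1, -2.28 for Ulk1, -2.30 for Foxo1, -1.87 for Gabarapl1, -0.69 for Map1lc3b and -1.29 for Sqstm1. Among glucocorticoid and clock genes it was -4.19 for Cebpd, -1.61 for Klf9, -2.48 for Fkbp5, -2.11 for Per1, -1.55 for Cry2 and -0.98 for Rora. Among insulin and growth factor genes it was -1.70 for Pik3r1, -1.03 for Insr, -1.53 for Gsk3b, -1.02 for Igf1r and 2.25 for Igfbp5. Among fuel and lipid storage genes it was -4.97 for Pdk4, -3.64 for Acot2, -1.54 for Plin4 and 1.81 for Plin2. Among fatty acid synthesis genes it was 5.00 for Fasn, 4.33 for Acly, 4.70 for Elovl6, 3.64 for Thrsp, 1.04 for Me1 and -0.96 for Acacb, and among cholesterol synthesis genes 1.22 for Pmvk, 1.93 for Cyp51, 1.70 for Dhcr7 and -0.92 for Fdft1. It was -2.05 for Stc2 and 3.30 for Rrad. Of these 49 calls, 20 were lost in at least 1 alternative. Without hCYP2B6-Tg female replicate 2 it was lost for 11: Acacb, Map1lc3b, Rrad, Elovl6, Fdft1, Rora, Fasn, Cry2, Plin4, Foxo1 and Gabarapl1. The value moved by over 1.5 times there for 14 genes, among which the call held for Trim63 (-2.73), Ddit4 (-3.37), Sesn1 (-2.01), Ulk1 (-1.46), Insr (-0.68), Gsk3b (-0.77) and Acot2 (-2.21). Without the Glycam1 libraries the call was lost for 10: Acacb, Cyp51, Elovl6, Fasn, Gabarapl1, Igf1r, Igfbp5, Rora, Rrad and Tnrc18. With library totals it was lost for Acacb, Map1lc3b, Nup210, Hs6st1 and Tnrc18, and by limma voom for Acly, Thrsp, Rrad, Elovl6, Rora, Fasn and Gabarapl1. Without Cyp2b-null male replicate 1 it was lost for Map1lc3b, Cyp51, Rrad, Elovl6, Rora, Fasn and Gsta4; each other library left out, the unfiltered table and the replicate block took at most 5 calls, all of genes already listed.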

How the results depend on the processing

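The count of 2 genes that passed between genotypes in males at 10 mg/kg/day was 1 with library totals, 7 by limma voom, 62 by DESeq2 (8 higher and 54 lower), 42 from the male libraries only (5 higher and 37 lower) and 1 from only the 7 libraries. It was 0 without the 4 libraries at that dose above 30 counts of Glycam1, an alternative chosen after seeing the data, and ran from 0 to 16 with each library left out. RLE scaling, no filter and the stricter filter gave 2. DESeq2 gave 4 genes at 0 mg/kg/day and 4 for the genotype difference in the effect of 10 against 0 mg/kg/day. The 19 genes at 1 mg/kg/day became 9 with library totals and with the stricter filter, 297 without a filter, 0 by limma voom, 38 by DESeq2, 0 from male libraries only and 0 without the library above 10000 counts of Alb (chosen after seeing the data), with 0 to 36 over libraries left out. In females the 2003 genes ran from 577 to 2788 over libraries left out. The 1474 genes that differed between the sexes became 895 without a filter and 889 without the Glycam1 libraries, and ran from 659 to 2184 over libraries left out. The cause of these moves was not tested. Of 49 genes named that differed between the sexes, 38 kept the call without hCYP2B6-Tg female replicate 2. No gene followed in males at 10 mg/kg/day or in the sex difference changed sign past its threshold. Signs of single genes were not followed in the other comparisons. Under library totals the median sign turned for glycolysis, proteasome, autophagy, clock, calcium handling and cytosolic ribosomal lists between genotypes in males. Between the sexes it turned under library totals for fatty acid oxidation, proteasome, fast fibre, immediate early and polyamine lists. The median sign of the mitochondrial biogenesis list between the sexes turned under RLE scaling and not under library totals.

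Deviations of libraries with the same replicate number correlated between -0.04 and 0.46 over the 3 numbers that both groups share. For libraries with different numbers the correlations ran from -0.42 to 0.17. Whether the replicate numbers pair the libraries was not tested. With the replicate block 2 genes passed in males at 10 mg/kg/day, of which 1 was shared with the fit without it, and 0 at 1 mg/kg/day.

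With 4 and 3 mice, exact tests of library measures cannot go below p = 0.0571, and the median standard error of a log2 fold change was 0.23.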

Other observations

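Longer genes lay lower in hCYP2B6-Tg males at 10 mg/kg/day. Tested genes were split by gene length into 4 classes of near equal size. Among the 3896 genes of the longest class, 2.95% were higher and 9.65% lower at an unadjusted p under 0.05, with a median log2 fold change of -0.03. Among the 3898 of the shortest class 4.08% were higher and 1.85% lower, with a median of 0.08. In females at 10 mg/kg/day the medians ran the other way, at 0.08 in the longest class and -0.09 in the shortest, and in males at 0 mg/kg/day they were -0.02 and 0.06. These are shares of genes, which are not replicates, and their relation to RNA quality was not tested.

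Ucp1, the uncoupling protein of brown fat, had 0, 2.65, 0.05 and 2.98 CPM in hCYP2B6-Tg males and 0 CPM in each Cyp2b-null male at 10 mg/kg/day. It was picked after its values were seen and did not pass (edgeR adjusted p = 0.27).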
